A study of Homo sapiens with 8 samples.

Results

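Genes through which BT549 cells make, sense, import and dispose of adenosine were compared between cultures kept from attaching and attached cultures. The 8 genes are NT5E (CD73), ENTPD1 (CD39), ADA, ADK, ADORA1, ADORA2A, ADORA2B and SLC29A1, and a gene counted as measured where a probe set carried its symbol and no other. By this rule 7 of the 8 were measured, each by 1 probe set, out of 18417 genes on the array. The probe set for ADORA2A is also assigned to a read-through transcript with a neighbouring gene, so ADORA2A is not analysed here.

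BT549 is an established triple-negative breast cancer line of human origin. Total RNA from 8 cultures was hybridised to gene expression arrays, 4 from cells attached to ordinary culture plates and 4 from cells held in forced suspension over poly-HEMA, a coating to which cells do not stick. Both groups were fed RPMI medium containing insulin and 10% serum, none carried a genetic change or received a drug, and the series calls the 4 cultures of each group biological replicates. For the suspended cultures the labels give 24 h. For the attached ones they give 24 h in some fields and 48 h in another, and if the longer time holds, culture time and attachment cannot be told apart. All cultures are of 1 cell line, so p-values refer to the spread among these cultures.

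Values are the log2 signals the authors deposited, and differences are suspended minus attached. Array medians lay between 6.02 and 6.07. A call means an adjusted p under 0.05 in limma (Benjamini-Hochberg over 18417 genes). There is no measure of background, so signals are not compared between genes, fold values are ratios of signals, and a signal under 5.28, the 25th percentile over gene means, is called low. The mesenchymal marker VIM read 11.59 to 11.74 over the 8 arrays and the epithelial cadherin CDH1 4.13 to 4.41. Of 6 epithelial markers 3 had a mean below 5.28, CDH1 among them. Above it by mean were CLDN3 (6.62 to 6.88), KRT14 (6.80 to 7.29) and EPCAM (5.02 to 6.04). The oestrogen and progesterone receptor genes ESR1 and PGR stayed below 5.28 on each array, while the luminal keratin gene KRT18 read 8.05 to 8.26. Some line and lineage markers changed with suspension. Of 6 mesenchymal markers AXL fell by 1.04 and CDH2 by 0.38, while ZEB1 rose by 0.27 and CD44 by 0.22 (66.7% called, against 20.6% of all genes). Of 6 luminal breast markers GATA3, at 8.17 attached, rose by 0.49 and FOXA1 by 0.18 (33.3% called, against 20.6% of all genes). In RNA from whole cultures, a change in every cell and a change in the share of cells in some state cannot be told apart.

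Adenosine outside cells comes largely from ATP. CD39, the product of ENTPD1, removes phosphates from ATP and ADP to leave AMP, and CD73, the product of NT5E, turns AMP into adenosine at the cell surface. Adenosine then acts on G protein-coupled receptors, of which the ADORA1 product lowers cyclic AMP and the ADORA2A and ADORA2B products raise it. It is removed by passive transporters such as SLC29A1 (ENT1), after which adenosine kinase (ADK) returns it to AMP or adenosine deaminase (ADA) turns it into inosine. In tumours this pathway is best known for restraining immune cells, and CD73 is abundant on many mesenchymal and triple-negative breast cancer cells.

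In suspension, NT5E and ADORA2B signal was higher, and ADK and SLC29A1 signal was lower. SLC29A1 differed by 1.67-fold, ADK by 1.35-fold, NT5E by 1.27-fold and ADORA2B by 1.26-fold. ENTPD1, ADA and ADORA1 did not pass the test. Thus 4 of 7 measured members were called, 2 higher and 2 lower, where 20.6% of all genes tested were called, 10.4% higher and 10.2% lower. For the same 4 genes the attached and suspended values did not overlap, as for 24.8% of all genes. The median absolute difference over the 7 was 0.33, against 0.09 over all genes. Calls were more frequent in a separate fit to genes of higher signal. In that fit, to genes above the median of gene means, limma called 3870 of 9208 genes and 4 of the 6 members included. Its p-values were adjusted over those genes alone, which also affects the count. The shares over all genes given above are not matched for signal. The members were chosen with earlier results of these data known. The exact two-sided permutation test of each single difference gave p = 0.0286 for each of the 4, the smallest p that 4 against 4 arrays allow. Any gene whose groups do not overlap gets this p, so it adds nothing to the separation given above.

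**Figure D1:**
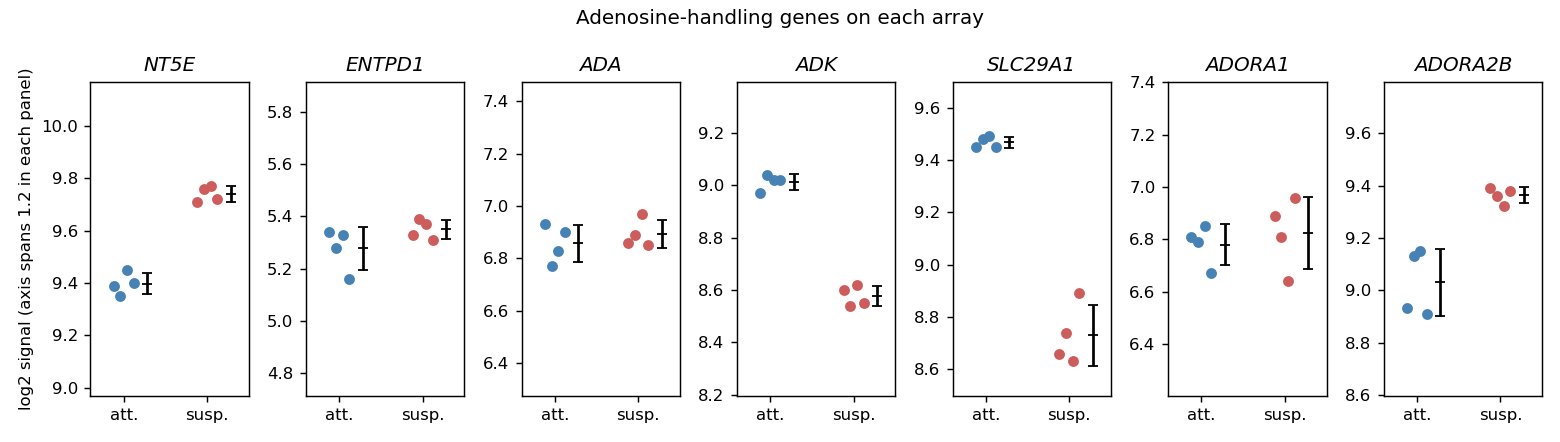
Log2 signal of the 7 measured genes on each array, with attached arrays (att.) in blue and suspended arrays (susp.) in red; bars are the mean ± SD over 4 arrays, and the panels have axes of equal length in log2 units. The groups separate for NT5E, ADK, SLC29A1 and ADORA2B and overlap for ENTPD1, ADA and ADORA1.

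Of the enzymes that produce adenosine, NT5E rose and ENTPD1 did not pass the test. NT5E read 9.39, 9.35, 9.45 and 9.40 on attached replicates 1 to 4 and 9.71, 9.76, 9.77 and 9.72 on suspended replicates 1 to 4. Every suspended array stood above every attached one, with a gap of 0.26 between the groups, several times the spread within either. The means were 9.40 ± 0.04 attached and 9.74 ± 0.03 suspended (SD, n = 4 arrays each), a difference of 0.34 (SE 0.044, 95% interval 0.24 to 0.44, limma adjusted p = 0.000223). By size of difference NT5E ranked 1307 of 18417 genes, so the rise was small next to the largest changes in suspension but was measured closely.

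ENTPD1, which supplies CD73 with AMP, read 5.34, 5.28, 5.33 and 5.16 attached and 5.33, 5.39, 5.37 and 5.31 suspended. The groups overlapped, and the values lay around the low-signal reference of 5.28. The difference was 0.07 (SE 0.052, 95% interval −0.04 to 0.19, limma adjusted p = 0.362). Its interval ends below the 0.24 at which that of NT5E begins, and the difference between the 2 responses was not itself tested.

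Of the genes that remove adenosine, the transporter and the kinase fell and the deaminase did not pass the test. SLC29A1, the main passive nucleoside carrier of many cells, read 9.45, 9.48, 9.49 and 9.45 attached and 8.66, 8.74, 8.63 and 8.89 suspended. Suspended replicate 4 was the highest of its group and still 0.57 below the lowest attached array. The means were 9.47 ± 0.02 and 8.73 ± 0.12 (SD, n = 4 each), and SLC29A1 fell by 0.74 (SE 0.059, 95% interval −0.87 to −0.61, limma adjusted p = 5.89e-06). It ranked 165 of 18417 genes by size of difference, the highest rank among the 7 members.

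ADK, which phosphorylates adenosine inside the cell, read 8.97, 9.04, 9.02 and 9.02 attached and 8.60, 8.54, 8.62 and 8.55 suspended. The 4 values of either group lay close together and the groups were 0.34 apart. ADK fell by 0.43, from 9.01 ± 0.03 to 8.58 ± 0.04 (SD, n = 4 each; SE 0.044, 95% interval −0.53 to −0.34, limma adjusted p = 4.13e-05).

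ADA, the other intracellular route out of adenosine, read 6.93, 6.77, 6.83 and 6.90 attached and 6.86, 6.89, 6.97 and 6.85 suspended. Its groups overlapped in part, with attached replicates 2 and 3 below and suspended replicate 3 above the shared range. The difference was 0.03 (SE 0.052, 95% interval −0.08 to 0.15, limma adjusted p = 0.694).

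Of the 2 receptors measured, ADORA2B rose and ADORA1 did not pass the test. ADORA2B, a receptor of low affinity that responds when adenosine is plentiful, read 8.93, 9.13, 9.15 and 8.91 attached and 9.39, 9.36, 9.32 and 9.38 suspended. Attached replicates 1 and 4 were lower than replicates 2 and 3, whereas the suspended arrays lay close together above all 4. The means were 9.03 ± 0.13 and 9.36 ± 0.03 (SD, n = 4 each), a difference of 0.33 (SE 0.063, 95% interval 0.19 to 0.47, limma adjusted p = 0.0028). When any 1 of the 8 arrays was left out, ADORA2B differed by 0.29 to 0.37, with limma adjusted p of at most 0.0105.

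ADORA1, which couples to inhibitory G proteins, read 6.81, 6.79, 6.85 and 6.67 attached and 6.89, 6.81, 6.64 and 6.96 suspended. The suspended arrays reached both below and above all attached ones. The difference was 0.04 (SE 0.071, 95% interval −0.11 to 0.20, limma adjusted p = 0.733), and it was −0.003 without suspended replicate 4.

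**Figure D2:**
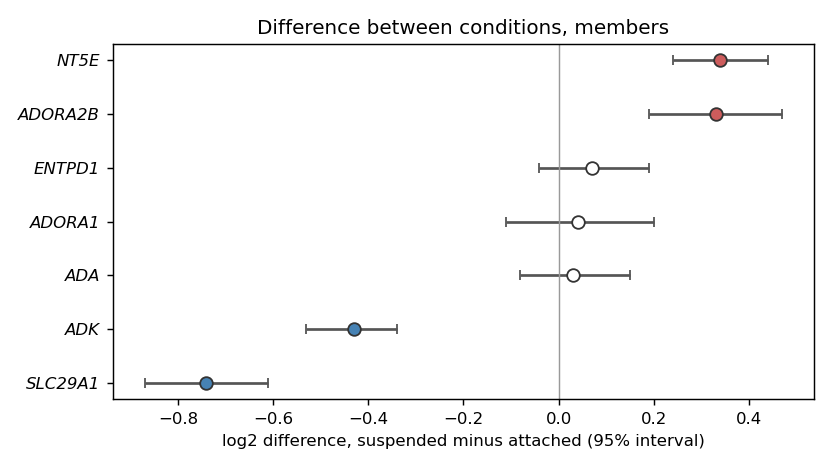
Log2 difference, suspended minus attached, for each measured gene, with the 95% interval from limma as the bar; red and blue points passed adjusted p under 0.05 as higher and lower, and white points did not pass. NT5E (0.34) and ADORA2B (0.33) lie to the right of 0 and SLC29A1 (−0.74) and ADK (−0.43) to the left, each with an interval that leaves out 0.

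The sequences before the start sites of the 4 called genes are shown because 2 of these genes rose and 2 fell in the same cultures. They are the 250 bases before the first listed start of each gene, 5′ to 3′ on the plus strand of GRCh38.p14, from RefSeq, and all 7 measured genes matched an entry. Capitals mark any of 3 short motifs found on either strand: the core of the cyclic AMP response element TGACG, the core of the hypoxia response element ACGTG, and GGAATG, which TEAD factors, the DNA-binding partners of YAP, recognise.
NT5E, chr6:85449833-85450082: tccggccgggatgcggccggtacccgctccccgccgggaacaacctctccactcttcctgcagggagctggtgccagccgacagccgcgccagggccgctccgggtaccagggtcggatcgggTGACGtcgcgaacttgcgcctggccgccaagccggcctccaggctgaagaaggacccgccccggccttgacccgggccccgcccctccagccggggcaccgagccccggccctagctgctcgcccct
ADORA2B, chr17:15944880-15945129: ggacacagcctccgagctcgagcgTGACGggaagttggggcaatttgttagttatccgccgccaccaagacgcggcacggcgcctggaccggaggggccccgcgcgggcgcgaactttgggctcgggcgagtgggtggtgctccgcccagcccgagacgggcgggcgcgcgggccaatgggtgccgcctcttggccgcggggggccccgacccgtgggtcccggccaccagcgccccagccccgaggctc
ADK, chr10:74150971-74151220: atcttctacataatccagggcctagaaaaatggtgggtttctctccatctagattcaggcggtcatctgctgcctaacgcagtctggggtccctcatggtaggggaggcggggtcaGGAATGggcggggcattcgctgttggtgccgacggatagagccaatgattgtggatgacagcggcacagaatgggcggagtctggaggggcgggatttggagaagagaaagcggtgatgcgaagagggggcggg
SLC29A1, chr6:44219365-44219614: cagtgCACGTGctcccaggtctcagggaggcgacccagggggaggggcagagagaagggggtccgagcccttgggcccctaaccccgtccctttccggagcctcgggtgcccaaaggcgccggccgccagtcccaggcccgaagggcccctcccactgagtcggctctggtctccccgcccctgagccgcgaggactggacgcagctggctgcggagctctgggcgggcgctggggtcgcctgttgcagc

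TGACG stood 127 bases before the start of NT5E and 226 before that of ADORA2B, counted from its first base, and was in 21.2% of 35116 windows of this length over all genes. It was absent from the windows shown for ADK and SLC29A1. ADK has a second listed start, whose window held TGACG as well, and of the 5 windows listed for ENTPD1, which was not called, the second held 3 copies and the fourth 1. The full element TGACGTCA, found in 1.6% of all windows, was in none of those of the 7 genes. ACGTG was found in the SLC29A1 window, where it lies in a palindrome and so matched on both strands, and in 18.5% of all windows. GGAATG was found in the ADK window shown, its last base shared with a GC box, and in 11.9% of all windows. The window of the second ADK start did not hold GGAATG. The GC box GGGCGG, left in lower case, was present in each of the 4 windows and in 42.6% of all windows. These matches are letters in a window, and no binding was measured.

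Of 12 other enzymes that act on nucleotides or nucleosides at the cell surface or outside cells, ENTPD2 rose, ENPP1 fell and 10 did not pass the test, so that 16.7% were called against 20.6% of all genes. ENPP1, which cuts ATP to AMP and pyrophosphate, read 8.52, 8.46, 8.52 and 8.50 attached and 7.86, 8.06, 8.09 and 8.05 suspended. The groups did not overlap, and suspended replicate 1 was the lowest array. ENPP1 fell by 0.48 (SE 0.057, limma adjusted p = 0.000117). ENTPD2, a surface enzyme that favours ATP, rose by 0.31 (SE 0.091, limma adjusted p = 0.0313), most on suspended replicate 4 at 7.26 against 6.77 to 6.91 on the others. The ENTPD2 call was lost without attached replicate 1, 3 or 4 (limma adjusted p up to 0.084), and without suspended replicate 4 the difference was 0.21. The other 10 did not pass. Differences were 0.03 for ENTPD3, 0.02 for ENTPD8, 0.11 for ENPP2, 0.10 for ENPP3 and 0.13 for ALPL. They were 0.03 for ALPP, 0.11 for ALPI, 0.10 for ACP3, 0.06 for CD38 and 0.10 for BST1. Of the 10, ENTPD3, ENPP3, ACP3 and CD38 were at low signal, with means below 5.28.

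Of the 6 nucleoside carriers measured besides SLC29A1, limma called 0, and 0 had an unadjusted p under 0.05, in a list too short to be read against the 20.6% called over all genes. SLC29A2, a second passive carrier of broad range, differed by 0.13, SLC29A3 by 0.02 and SLC29A4 by 0.13. The concentrative carriers SLC28A1, SLC28A2 and SLC28A3 differed by 0.05, 0.10 and −0.02. SLC28A1 and SLC28A2 were at low signal, with means below 5.28. Whether the differences of the 6 carriers depart from that of SLC29A1 was not tested.

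Of 8 genes tied to release of ATP or related nucleotides, 4 rose and 0 fell by limma, where 10.4% of all genes rose. At unadjusted p under 0.05 the counts were also 4 and 0. This list is also too short to be read against the share over all genes. ANKH, a membrane protein tied to export of pyrophosphate and ATP, read 7.64, 7.66, 7.66 and 7.63 attached and 8.42, 8.39, 8.40 and 8.45 suspended. Neither group spread by more than a few hundredths, and ANKH rose by 0.77 (SE 0.042, limma adjusted p = 3.47e-07). GJA1 (connexin 43, 0.44), the channel gene PANX1 (0.22) and LRRC8A (0.19), the core of the volume-regulated anion channel, also rose. LRRC8A lost its call when replicate 1 or 4 of either group was omitted (limma adjusted p up to 0.0614, differences 0.16 to 0.21 over the 8 refits). PANX2, PANX3, SLC17A9 and CALHM1 did not pass.

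Enzymes that convert adenosine, AMP and the purines made from them, and close relatives of such enzymes, changed in both directions. Of 17 genes measured, among them DPP4, which encodes no such enzyme and did not pass, 5 fell and 3 rose. Over all genes 10.2% fell and 10.4% rose. PNP, which splits inosine, the product of ADA, read 9.00, 9.06, 9.00 and 9.00 attached and 8.22, 8.34, 8.26 and 8.33 suspended. The groups lay far apart, and PNP fell by 0.73 (SE 0.047, limma adjusted p = 1.13e-06), a fold of 1.66. HPRT1, which salvages hypoxanthine, fell by 0.42 (limma adjusted p = 0.000719), and the adenylate kinase genes AK5 and AK4, whose products interconvert AMP, ADP and ATP, fell by 0.62 and 0.29. AK4 has a second probe set that differed by 0.04 (SE 0.159), and with the mean of both AK4 was not called (limma adjusted p = 0.367).

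Of the 3 that rose, AHCYL2 (0.42) and AHCYL1 (0.27) resemble the enzyme that frees adenosine from S-adenosylhomocysteine, and AHCYL1 is known for binding the inositol trisphosphate receptor. AHCY, that enzyme itself, differed by −0.10 and did not pass. AK1 rose by 0.24, and XDH, which makes urate, fell by 0.26. Both calls were thin, and for both genes the attached and suspended values overlapped. XDH was also at low signal, at 4.95 to 5.21 on the suspended arrays against the 5.28 reference. AK1 kept its call in the refits that omitted attached replicate 2 or suspended replicate 1 and lost it in the other 6 (limma adjusted p up to 0.127). XDH kept its call in those that omitted attached replicate 2 or suspended replicate 4 and lost it in the other 6 (limma adjusted p up to 0.109). Among 6 cytosolic and mitochondrial nucleotidases NT5C2 fell by 0.20 (16.7% called, against 20.6% of all genes). The NT5C2 call did not survive omission of attached replicate 1, attached replicate 4, suspended replicate 3 or suspended replicate 4 (limma adjusted p up to 0.0874). Among 4 ENTPD enzymes of internal membranes ENTPD6 rose by 0.16, a call kept only without attached replicate 2 among the 8 refits (limma adjusted p up to 0.117).

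G protein subunit and adenylyl cyclase genes tied to adenosine receptor signalling were called at about the rate of all genes. Of 15 measured, 2 were higher and 1 lower (20.0% called, against 20.6% of all genes). GNAI2, an inhibitory G protein subunit, read 9.42, 9.48, 9.55 and 9.44 attached and 10.06, 10.02, 10.03 and 10.11 suspended. Without overlap between groups, it rose by 0.59 (SE 0.048, limma adjusted p = 7.48e-06). A second GNAI2 probe set differed by 0.24 (SE 0.099) and was not called (limma adjusted p = 0.125 over all probe sets). GNAS, the stimulatory subunit used by ADORA2B, rose by 0.15 (limma adjusted p = 0.0394), a call kept only without suspended replicate 4 among the 8 refits (up to 0.0995). The adenylyl cyclase ADCY3 fell by 0.34 (SE 0.059, limma adjusted p = 0.00165), and the other 8 cyclase genes did not pass.

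Over the 68 measured genes of these roles, the 7 members apart, 11 rose and 8 fell (27.9% called, against 20.6% of all genes), with a median difference of 0.04 against 0.02 over all genes. The count was 12 without attached replicate 1 and also 12 without attached replicate 4, with 6 higher and 6 lower in each case. Listed genes such as NT5C1B, ADAL, ABCC6 and ADORA3 are not analysed here.

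**Figure D3:**
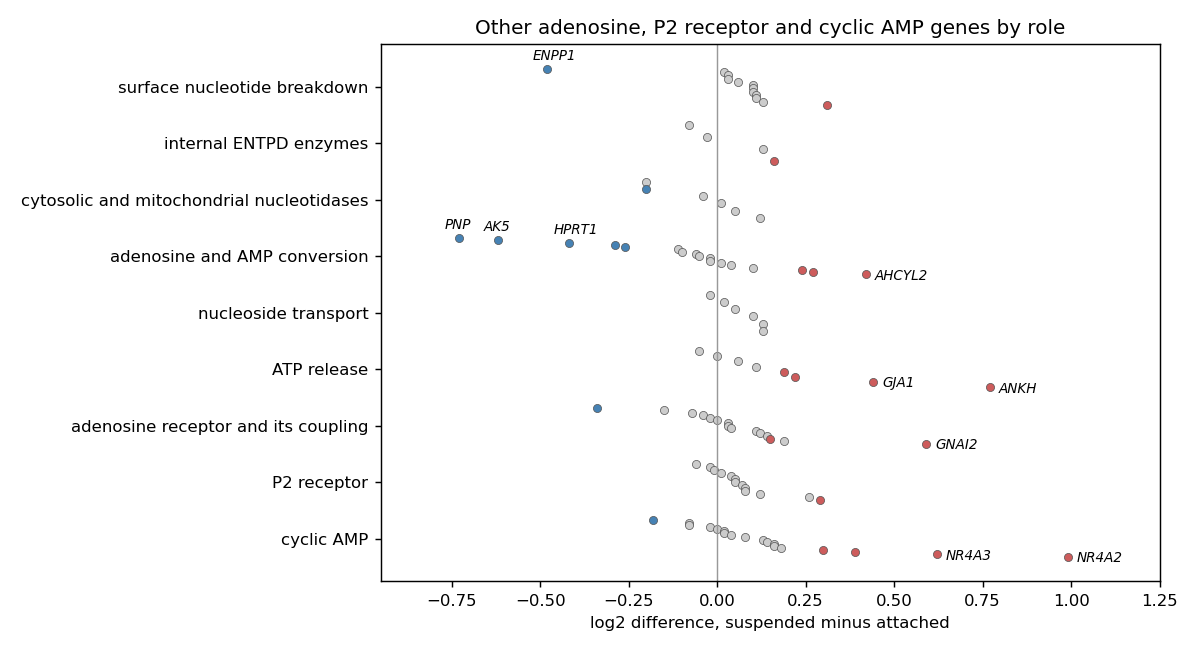
Log2 difference, suspended minus attached, for each measured gene of the listed roles, 1 point a gene, with the 7 members left out. Red marks higher and blue lower at adjusted p under 0.05, and grey marks not called. Called genes with a difference of 0.4 or more in size are named. The ATP release row has 4 red points and 0 blue ones, and the nucleoside transport row, which omits the member SLC29A1, is grey throughout.

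Receptors for ATP and other nucleotides, upstream of adenosine, were mostly at low signal. Of 13 measured P2 receptor genes 9 had a mean below 5.28. P2RX2, an ATP-gated channel, rose from 5.86 ± 0.10 to 6.15 ± 0.08 (SD, n = 4 each; difference 0.29, limma adjusted p = 0.0056), and the other 12 did not pass (7.7% called, against 20.6% of all genes). Without suspended replicate 2 the count was 2, with P2RY6, a receptor for UDP, at 0.33 (limma adjusted p = 0.0392).

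Among 18 genes of cyclic AMP signalling and response 4 rose and 1 fell (27.8% called, against 20.6% of all genes), with a median difference of 0.11 against 0.02 over all genes. NR4A2, an orphan nuclear receptor gene that cyclic AMP is known to induce, read 5.79 to 6.05 on the attached arrays and 6.79 to 7.06 on the suspended ones. The groups lay apart, and NR4A2 rose by 0.99 (SE 0.078, limma adjusted p = 5.51e-06). Its relative NR4A3 rose by 0.62 (limma adjusted p = 0.000364), while NR4A1 differed by 0.08 and did not pass. PRKAR1A, a regulatory subunit of protein kinase A, rose by 0.39 and the clock gene PER1 by 0.30. CREB1, which encodes the factor that binds the cyclic AMP response element, fell by 0.18, a call that was kept in the refits omitting attached replicate 2, suspended replicate 2 or suspended replicate 3 and lost in the other 5 (limma adjusted p up to 0.0773). These genes also respond to signals other than adenosine, which was not measured.

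**Figure D4:**
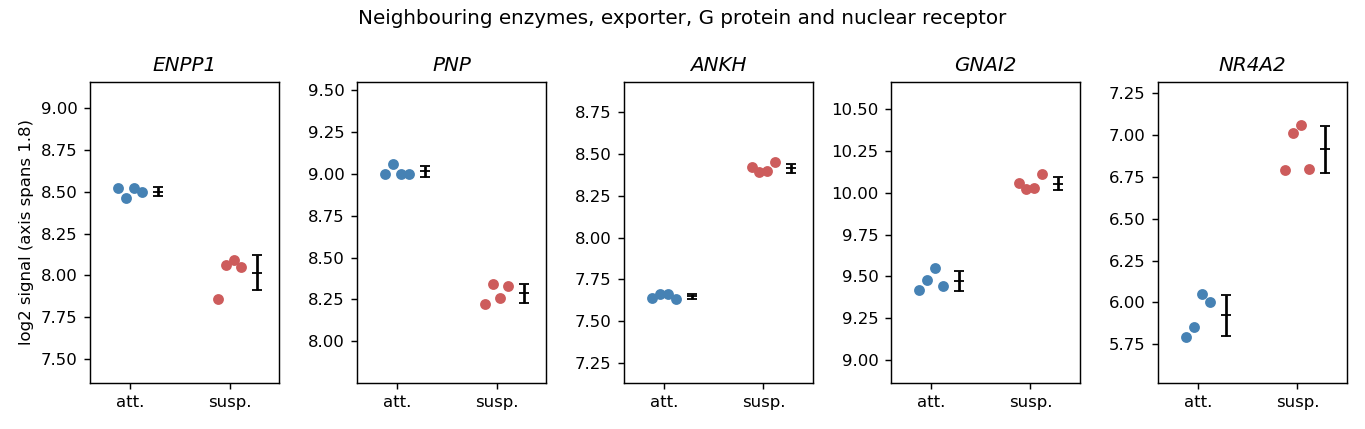
Log2 signal on each array for ENPP1, PNP, ANKH, GNAI2 and NR4A2, with attached arrays in blue, suspended arrays in red and the mean ± SD over 4 arrays as bars, on axes of equal length in log2 units. ENPP1 and PNP are lower, and ANKH, GNAI2 and NR4A2 higher, on all 4 suspended arrays than on any attached array.

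By root mean square difference over the 8 arrays, each gene taken relative to its attached mean, the genes with the pattern most like that of NT5E were ANKRD10 (0.022), KDM5B (0.025) and PLS3 (0.030). They rose by 0.35, 0.33 and 0.33. This measure ranks genes by similar size and spread of change and was computed with no test.

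ENTPD1 and ADA are also genes of lymphocytes and other leukocytes. Of 9 leukocyte markers measured, CD14 rose by 0.22 and CD68, a lysosomal protein gene, fell by 0.39 (22.2% called, against 20.6% of all genes). Their summed linear signal was 642.8 to 675.1 attached and 564.3 to 621.9 suspended, and without CD68 it was 311.3 to 324.8 attached and 307.2 to 357.6 suspended, so the lower sum rests on that gene. PTPRC, the defining leukocyte gene, read 3.84 to 4.05 over the 8 arrays, below the 5.28 reference on each. Of the 9 leukocyte markers 4 had a mean below 5.28, PTPRC among them. Above it by mean were CD8A, CD14, ITGAM, NKG7 and CD68. Of 5 endothelial markers CLDN5 rose by 0.26 and the other 4 did not pass (20.0% called, against 20.6% of all genes). The endothelial sums were 202.4 to 218.1 attached and 202.1 to 232.2 suspended. The part of these markers in the results was not tested.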

How the data were processed

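Total RNA of 8 BT549 cultures was profiled, 4 attached and 4 suspended. The authors deposited 1 table of log2 signals for 33297 probe sets. The log2 scale was inferred from the values (array maxima 13.69 to 13.74). Partek processed the arrays, per the submitters' processing notes; which version, background correction, normalization and summary method is not given in the sources used. The labelling kit in the labels is one for small RNA, so how RNA was labelled for these arrays is uncertain.

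Of the probe sets, 19460 had 1 symbol in the platform annotation, 1754 had several and 12083 had none; 19429 matched the RefSeq table of GRCh38.p14 by gene ID, with 0 symbols updated. Where several probe sets named a gene, the brightest by mean over the 8 arrays was kept, giving 18417 genes. Groups were compared with limma 3.58.1 (lmFit, eBayes, no covariate) in R 4.3.3, two-sided, with Benjamini-Hochberg adjustment at 0.05; SE is moderated. The pipeline was tested on simulated data. Precision is limited by the number of arrays, 4 against 4. Python 3.11.15, scipy 1.17.1 and matplotlib 3.10.9 made permutation tests and plots.

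Members and gene lists were chosen with earlier results of these data known. Named genes are the members, called list genes, all measured surface enzymes and transporters, the 3 genes most like NT5E and, outside this rule, uncalled genes given as context. Alternatives were a further quantile normalization, median centring, 2 filters on low signal, the mean of probe sets, array weights, a trended robust prior, a replicate block, leaving out each array and an exact permutation test. Same-numbered arrays did not deviate together (correlations −0.198 to 0.042 over the 18417 genes), so the numbers were not taken to pair samples.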

Additional observations from a re-analysis of the deposited data

Results flagged for a closer look

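In 96 groups of 4 arrays, for 48 genes, 5 single values stood apart from the other 3 by Dixon's test, where chance alone gives about 1 in 20. ENPP1 was 7.86 on suspended replicate 1, against 8.05 to 8.09 on the others. BST1 was 6.10 on attached replicate 3, against 6.16 to 6.17. PNP was 9.06 on attached replicate 2, against 9.00 on the others. AHCYL1 was 9.81 and AHCYL2 7.64 on suspended replicate 3, against 9.87 for the others and 7.55 to 7.56. None of the 7 members had such a value.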

How the results depend on the processing

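NT5E, ADK, ADORA2B and SLC29A1 kept direction and call, and ENTPD1, ADA and ADORA1 stayed uncalled, under every alternative limma fit. ENTPD1 lies below the median level and was not in that filter. The permutation test is not adjusted and gives no call of this kind. Differences ranged from 0.32 to 0.39 for NT5E, −0.46 to −0.39 for ADK, 0.31 to 0.39 for ADORA2B and −0.76 to −0.69 for SLC29A1, leaving out single arrays aside. With each array left out in turn they were 0.33 to 0.36, −0.45 to −0.42, 0.29 to 0.37 and −0.79 to −0.71, and ADORA1 ran from −0.003 to 0.10. Over the same refits the adenosine pathway count ran from 12 to 18, the P2 receptor count from 1 to 2, the cyclic AMP count from 4 to 7, and the count of all genes from 2934 to 3752. With a replicate block the members' limma adjusted p values were 0.00306 (NT5E), 0.00129 (ADK), 0.0136 (ADORA2B) and 0.000232 (SLC29A1), and 3022 genes were called in place of 3787. The block ended the calls of ENTPD6, NT5C2, XDH, LRRC8A, GNAS and CREB1.

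Of 25 called list genes 17 were called in all 8 refits. Besides P2RY6, calls were gained by PDE4A (0.17) and PDE4D (0.21) without attached replicate 2 and by PDE4B (0.24) without attached replicate 1. A further quantile normalization ended the calls of NT5C2, AK1 and CREB1, and median centring those of ENTPD6, AK1 and GNAS. Quantile normalization also added calls. With it the cyclic AMP list had 6 higher and 0 lower, in place of 4 and 1. The adenosine pathway list then had 11 higher and 7 lower, in place of 11 and 8. Uncalled genes near 0 changed sign. Over the 8 refits ENTPD3 ran from −0.0051 to 0.04, ENTPD8 from −0.03 to 0.07, SLC29A3 from −0.03 to 0.07 and SLC28A3 from −0.05 to 0.01. ENTPD3 was −0.0051 without attached replicate 3, and ENTPD8 was −0.0038 after quantile normalization and −0.03 without attached replicate 4. SLC29A3 was −0.001 after median centring, −0.0063 with array weights and −0.03 without suspended replicate 4. SLC28A3 was 0.0061 with array weights, 0.01 without attached replicate 1, 0.0032 without attached replicate 4 and 0.00038 without suspended replicate 4. Low signals have no background measure, which limits ENTPD1, XDH, most P2 receptor genes, ENTPD3, ENPP3, ACP3, CD38, SLC28A1 and SLC28A2. The causes were not tested.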
